A study of Homo with 2 samples.

Results

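The genes described here are the 2 pappalysin proteases PAPPA and PAPPA2, the IGF-binding proteins IGFBP2, IGFBP3, IGFBP4, IGFBP5, IGFBP6 and IGFBP7, and the receptors IGF1R and IGF2R. They were chosen by symbol, as 10 of the 28363 genes listed in either count table, and both tables list each of them. The samples were 2 single-cell libraries of 1 group: day 4 human blastoids, which are embryo-like aggregates made from stem cells. Their source was KhES1, an established line of human embryonic stem cells, which spent 24 h in microwells to aggregate and the next 4 days embedded in hydrogel, with high-glucose DMEM, 10% FBS (fetal bovine serum) and Y27632, a ROCK inhibitor, at 10 µM. Both libraries share these conditions, so the comparisons are between kinds of cells within the libraries. One cell line was used, and nothing in the labels ties each library to a culture of its own. The p-values therefore measure only how differences between kinds of cells vary between these libraries, and that spread may be technical.

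Insulin-like growth factors (IGFs) are peptide hormones that drive growth through IGF1R, a receptor tyrosine kinase. In the fluid around cells they are held by IGF-binding proteins, which keep them from the receptor, and pappalysins cut particular binding proteins and so release the hormone. PAPPA cuts IGFBP4 and also IGFBP5, PAPPA2 cuts IGFBP3 and IGFBP5, and both proteases are made in large amounts by the placenta. IGF2R has no kinase and carries IGF2 to the lysosome. IGFBP7 binds IGFs only weakly and is also studied as a secreted matrix-associated protein.

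The barcodes used had 1000 or more detected genes and no more than 20% mitochondrial UMIs, 937 in library 1 and 1517 in library 2, with medians of 35059 and 25012 UMIs per cell. A UMI (unique molecular identifier) marks 1 captured RNA molecule, and levels are given as CPM, counts per 1000000 UMIs of the same cells. Of the 11 clusters found, those with trophectoderm and amnion markers form a trophectoderm/amnion-like class of 749 and 937 cells (trophectoderm is the outer layer of the blastocyst). All 14 of its listed markers were at 10 CPM or more in both libraries, and so were 5 of 14 epiblast markers and 7 of 10 mesenchyme markers. The mesenchyme markers summed to 578 and 614 CPM there, 202 and 179 CPM in the epiblast-like class and 316 and 338 CPM in the PGF-high cluster described below, and their part in the differences between classes was not tested. A single cluster of 67 and 99 cells is the epiblast-like class, after the pluripotent part of the embryo. In it 11 of 14 epiblast markers reached 10 CPM in both libraries, and so did 11 of 14 trophectoderm or amnion markers in library 1 and 12 in library 2, and 8 and 6 of 9 primitive streak and mesoderm markers. Another cluster of 23 and 54 cells scored highest for syncytiotrophoblast markers. The listed markers CGB3, CGB5, PSG3 and INSL4 were in neither count table, which leaves 5. In this cluster all 5 were at 10 CPM or more in library 1. Only CGA and CYP19A1 were in library 2, where SDC1 was at 7.68, ERVFRD-1 at 4.27 and ERVW-1 at 3.42 CPM. All 14 trophectoderm or amnion markers were also at 10 CPM or more in this cluster, and it is called by its leading gene, the PGF-high cluster. Levels and UMI counts per class, cluster and sub-cluster rest on a random part of the UMIs that was not used to form the clusters. Shares of cells and counts in thinned cells, given below, were taken from all UMIs. Neither the members nor the listed IGF pathway genes were used to form the clusters.

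Over all used cells, IGFBP7, PAPPA2 and IGFBP3 gave most UMIs among the members, and IGFBP4, PAPPA and IGFBP6 fewest. IGFBP7 was at 728 ± 3.29 CPM (SD, n = 2 libraries), PAPPA2 at 653 ± 14.8 CPM and IGFBP3 at 616 ± 0.68 CPM. IGF1R followed at 355 ± 15.7 CPM, IGFBP2 at 211 ± 12.1 CPM, IGFBP5 at 135 ± 1.44 CPM and IGF2R at 118 ± 2.98 CPM. These 7 genes were in the same order in both libraries, and no pair of neighbours in that order overlapped between libraries. IGFBP4 was at 15.4 ± 2.15 CPM, PAPPA at 8.22 ± 0.45 CPM, and IGFBP6 at 0.80 ± 0.07 CPM, on 28 UMIs in library 1 and 37 in library 2. UMIs from this 3′ chemistry count molecules and were not divided by gene length, so the order is one of UMIs and not of protein.

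**Figure D1:**
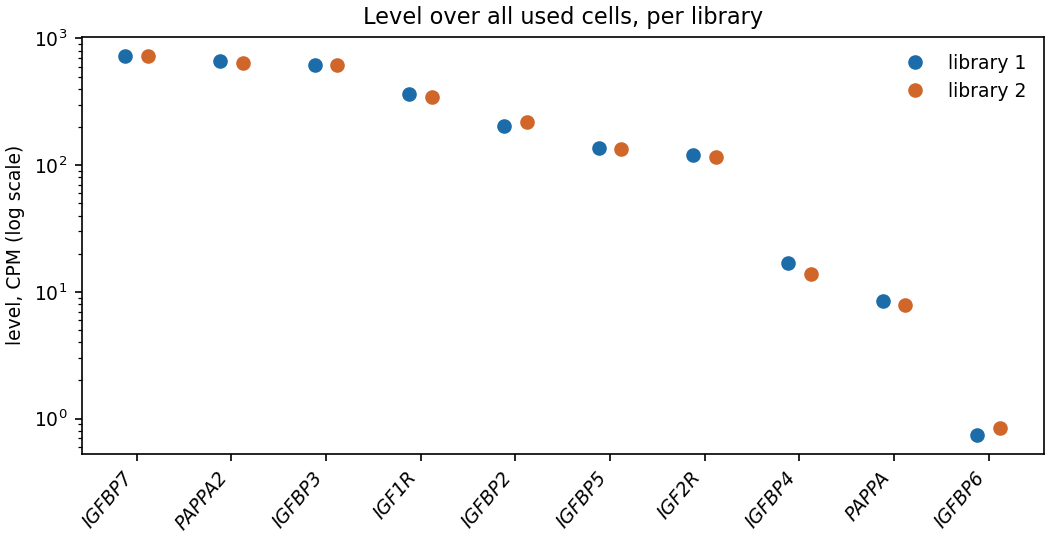
Level of each member over all used cells, in CPM on a log axis, with 1 point per library. The members run from IGFBP6 at 0.80 CPM to IGFBP7 at 728 CPM, and the points of the libraries lie close together for each gene.

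PAPPA2 and PAPPA, the 2 proteases, lay on opposite sides of the main division between cell classes. PAPPA2 (chromosome 1, 176463175 to 176845601 in GRCh38) was at 733 CPM in library 1 and 732 CPM in library 2 in the trophectoderm/amnion-like class, against 53.0 and 22.7 CPM in the epiblast-like class. PAPPA (chromosome 9, 116153791 to 116402321) showed the reverse, with 7.75 and 5.52 CPM in the trophectoderm/amnion-like class against 22.3 and 24.1 CPM in the epiblast-like class. In neither gene did the libraries of one class overlap those of the other. Even in the epiblast-like class, PAPPA rested on 45 and 66 UMIs, compared with 11339 and 12593 UMIs of PAPPA2 in the trophectoderm/amnion-like class.

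Among the binding proteins, IGFBP3, IGFBP5 and IGFBP7 went with PAPPA2, and IGFBP4 with PAPPA. IGFBP3 (chromosome 7, 45912245 to 45921272), a main carrier of IGFs in blood and a PAPPA2 substrate, was at 669 and 677 CPM in the trophectoderm/amnion-like class and at 65.4 and 48.6 CPM in the epiblast-like class. IGFBP5 (chromosome 2, 216672105 to 216695549), a substrate of both proteases, was at 160.3 and 158 CPM against 10.4 and 7.68 CPM. IGFBP7 (chromosome 4, 57030773 to 57110385) was at 852 and 862 CPM against 80.7 and 93.6 CPM. In all 3 genes the trophectoderm/amnion-like libraries lay far above both epiblast-like ones.

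IGFBP4 (chromosome 17, 40443450 to 40457725), the classic PAPPA substrate, was at 13.5 and 10.5 CPM in the trophectoderm/amnion-like class and at 45.1 and 36.2 CPM in the epiblast-like class. IGFBP2 (chromosome 2, 216632828 to 216664436), a binding protein abundant in embryonic tissue, differed least of the binding proteins tested, with 215 and 236 CPM against 146 and 143 CPM. IGFBP2 and IGFBP5 are neighbours, 7668 bp apart. IGFBP6 (chromosome 12, 53097667 to 53102340), which prefers IGF2, gave 5 and 10 UMIs in the trophectoderm/amnion-like class (0.32 and 0.58 CPM) and 11 and 10 in the much smaller epiblast-like class (5.45 and 3.65 CPM). It was too low for the filter of the test between classes.

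The receptors differed less. IGF1R (chromosome 15, 98648539 to 98964530) was at 398 and 377 CPM in the trophectoderm/amnion-like class and at 287 and 229 CPM in the epiblast-like class. IGF2R (chromosome 6, 159969082 to 160111504) was at 125 and 117 CPM against 91.6 and 97.6 CPM. The classes did not overlap for either receptor.

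**Figure D2:**
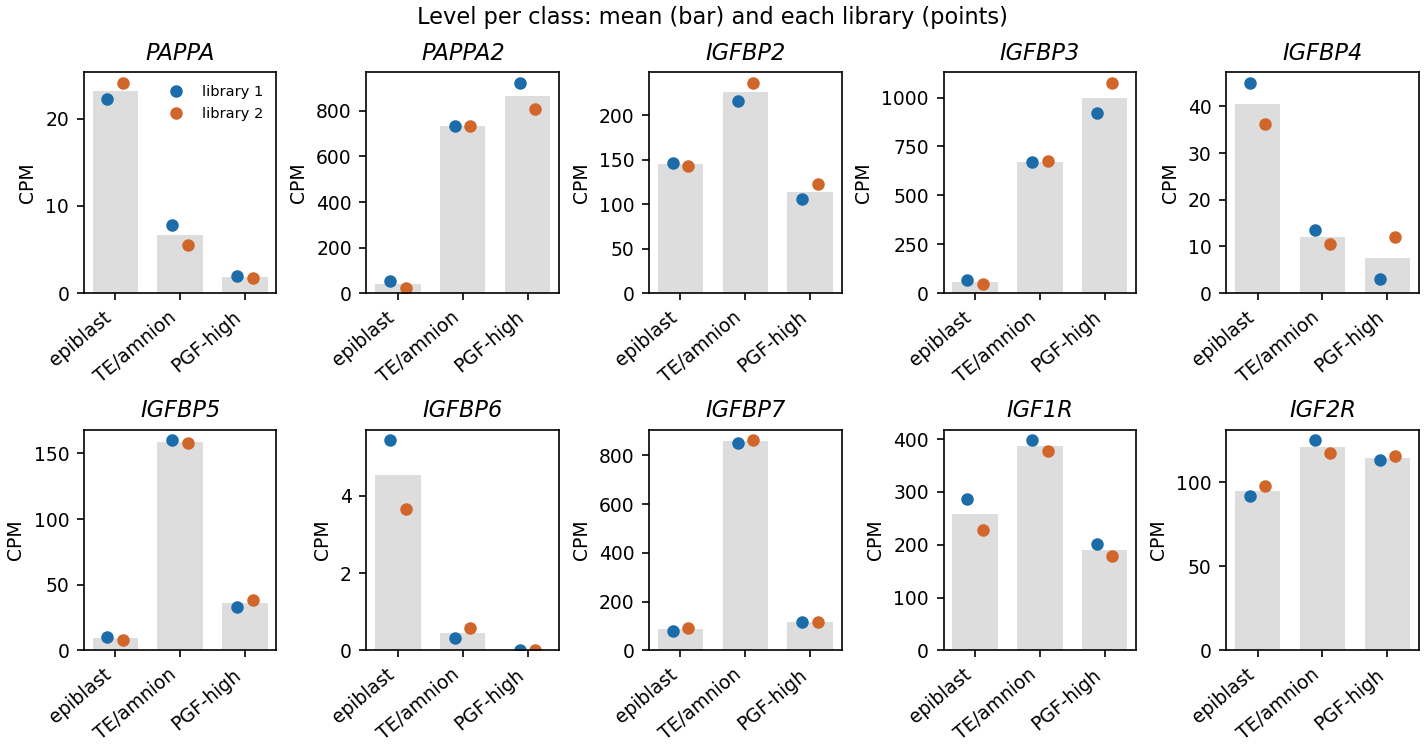
Level of each member in CPM in the epiblast-like class, the trophectoderm/amnion-like class (TE/amnion) and the PGF-high cluster, each panel on its own scale from 0. Bars are means of the 2 libraries and points are the libraries. PAPPA, IGFBP4 and IGFBP6 are highest in the epiblast-like class, PAPPA2 and IGFBP3 are high in both other kinds of cells, and IGFBP5 and IGFBP7 are high in the trophectoderm/amnion-like class.

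With edgeR's quasi-likelihood test on UMIs summed per library and class, 9 of the 10 members could be tested, and all 9 passed an adjusted p of 0.05 (Benjamini-Hochberg over all 12589 genes tested). Of these, 7 were higher in the trophectoderm/amnion-like class, where 22.2% of all genes tested were, and 2 were lower, where 23.6% were. The log2 fold change (trophectoderm/amnion-like minus epiblast-like) was 4.40 ± 0.26 (SE) for PAPPA2 (adjusted p = 3.6e-10), 4.23 ± 0.18 for IGFBP5 (adjusted p = 7.3e-12), 3.65 ± 0.22 for IGFBP3 (adjusted p = 4.0e-10) and 3.36 ± 0.14 for IGFBP7 (adjusted p = 4.6e-12). It was smaller for IGFBP2, at 0.71 ± 0.12 (adjusted p = 0.00015), for IGF1R, at 0.67 ± 0.13 (adjusted p = 0.00038), and for IGF2R, at 0.42 ± 0.13 (adjusted p = 0.012). PAPPA had -1.76 ± 0.28 (adjusted p = 5.6e-05) and IGFBP4 -1.69 ± 0.25 (adjusted p = 2.6e-05). The median over all genes tested was -0.01. The IGF2R call was lost under another random division of the UMIs (adjusted p = 0.15) and with the divided parts exchanged (adjusted p = 0.077). For IGFBP6, the fit without a filter on low counts gave -3.14 ± 0.77 (adjusted p = 0.00034).

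**Figure D3:**
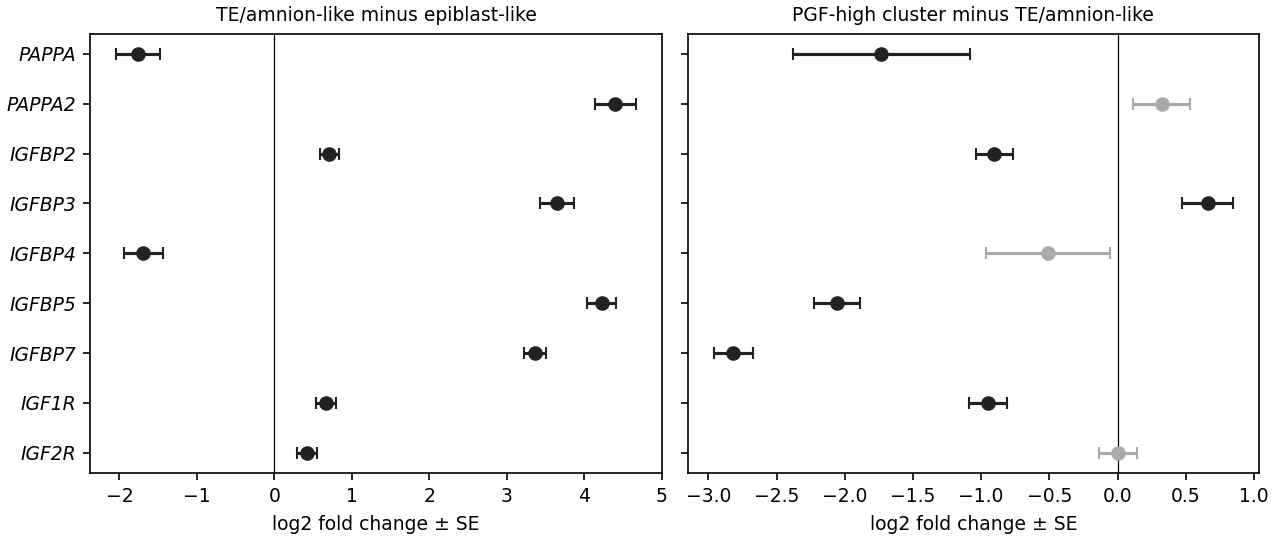
Log2 fold change ± SE of the 9 members tested, on the left for the trophectoderm/amnion-like minus the epiblast-like class and on the right for the PGF-high cluster minus the trophectoderm/amnion-like class. Black points passed an adjusted p of 0.05 and grey points did not. On the left PAPPA (-1.76) and IGFBP4 (-1.69) lie below 0 and the others above. On the right IGFBP3 (0.66) is the only black point above 0.

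Within the epiblast-like class a few cells gave most of the PAPPA2 UMIs. The class was divided into 5 sub-clusters, described without a test, since they hold 14 to 53 cells. A sub-cluster of 3 and 11 cells had the highest level of the amnion marker VTCN1, at 45.0 and 114 CPM, and kept POU5F1, a pluripotency factor, at 293 and 352 CPM. It held 142 of the 169 PAPPA2 UMIs of the class (84.0%), 129 of 265 IGFBP3 UMIs (48.7%) and 199 of 419 IGFBP7 UMIs (47.5%). PAPPA2 was at 546 and 184 CPM there, and at 17.4 CPM or less in each library of the other 4 sub-clusters. The median depth of these cells was 108740 UMIs in library 1, where they are 3 cells, and 40433 UMIs in library 2. In the class as a whole it was 52920 and 48692. Scrublet, which calls doublets, called only 0 and 2 barcodes in the libraries, and these were removed before clustering. With so few calls, some of these cells may still be doublets. Without this sub-cluster the log2 fold change of PAPPA2 between the classes was 6.94 ± 0.27 and that of IGFBP3 4.48 ± 0.24 (edgeR adjusted p = 3.7e-12 and 1.1e-10), an alternative chosen after seeing the data.

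PAPPA and IGFBP4 were highest in the sub-cluster with most MESP1 and TBXT, factors of the early mesoderm and primitive streak. In its 14 and 18 cells, MESP1 was at 324 and 231 CPM and TBXT at 177 and 295 CPM, while the pluripotency gene NANOG had 0 UMIs in both libraries. IGFBP4 was at 92.2 and 85.1 CPM there, above both libraries of every other sub-cluster, whose highest value was 65.5 CPM. PAPPA was at 60.6 and 34.6 CPM, and its next value was 31.2 CPM in library 2 of the GATA3-high sub-cluster. These cells hold 36 of the 111 PAPPA UMIs of the class and 67 of its 190 IGFBP4 UMIs, and the larger GATA3-high sub-cluster holds 40 and 44. The test between the classes was not repeated without the MESP1-high sub-cluster. The same MESP1-high cells had 1 PAPPA2 UMI, 4 of IGFBP3, 0 of IGFBP5 and 5 of IGFBP7, and IGF1R at 134 and 138 CPM was lower than in the other 4 sub-clusters.

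In the sub-cluster of 21 and 16 cells with most GATA3, a trophectoderm and amnion factor at 142 and 214 CPM, IGFBP3 was at 68.9 and 66.7 CPM and IGFBP7 at 110.3 and 96.9 CPM. PAPPA2 was at 8.77 and 6.46 CPM in these cells. In the sub-cluster with most SOX2, a pluripotency factor at 246 and 174 CPM, IGFBP3 was at 9.54 and 12.4 CPM and IGFBP7 at 21.5 and 12.4 CPM. Both binding proteins were thus higher in the GATA3-high cells than in the SOX2-high cells in each library, and PAPPA2 was below 10 CPM in both. PAPPA was at 7.16 and 24.8 CPM in the SOX2-high cells, on 3 and 18 UMIs. In library 1 it was thus not above its trophectoderm/amnion-like level given before. IGFBP4 was at 31.0 and 27.6 CPM in the SOX2-high cells, above its trophectoderm/amnion-like level in both libraries.

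**Figure D4:**
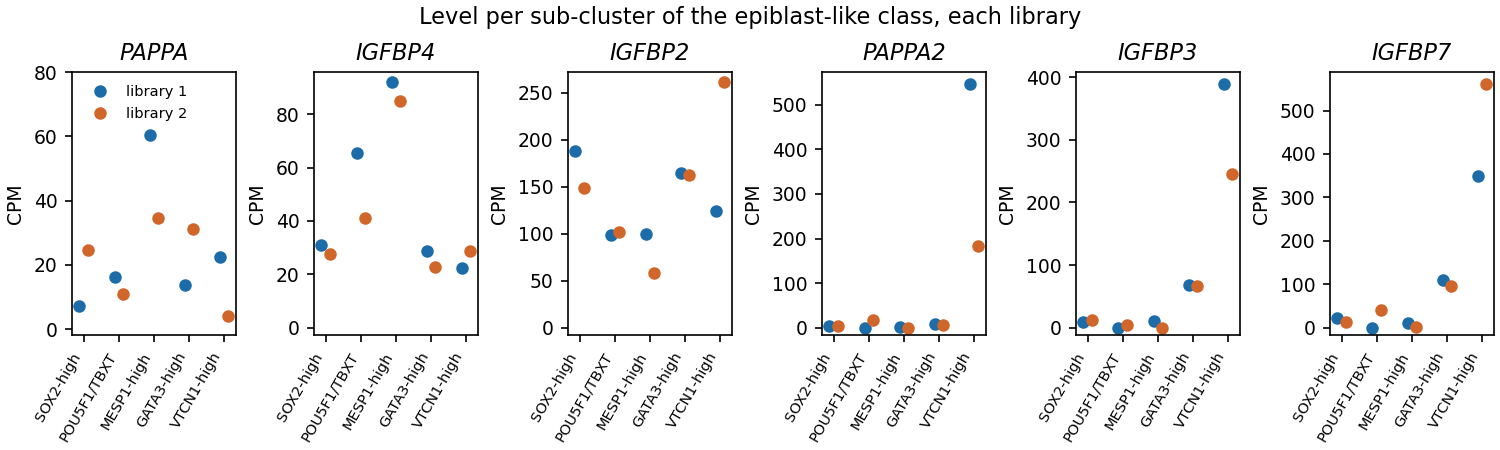
Level in CPM of 6 members in the 5 sub-clusters of the epiblast-like class, with 1 point per library and each panel on its own scale. PAPPA and IGFBP4 are highest in the MESP1-high sub-cluster, and PAPPA2, IGFBP3 and IGFBP7 in the VTCN1-high one, where PAPPA2 reached 546 CPM in library 1 and 184 CPM in library 2.

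In the PGF-high cluster PAPPA2 and IGFBP3 stayed abundant while IGFBP7, IGFBP5 and IGFBP2 were lower than in the trophectoderm/amnion-like class. PGF encodes placental growth factor, and the cluster also had CYP19A1, the placental oestrogen-making enzyme, at 243 and 149 CPM. IGFBP7 was at 115 CPM in library 1 and 114 CPM in library 2, IGFBP5 at 33.1 and 38.4 CPM and IGFBP2 at 105 and 122 CPM. PAPPA2 was at 924 and 809 CPM and IGFBP3 at 919.7 and 1076 CPM, both above the trophectoderm/amnion-like libraries given before.

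For this contrast, added after seeing the data, 1 of 9 members tested was higher, against 19.7% of all genes, and 5 were lower, against 18.0% of all genes. The log2 fold change (PGF-high minus trophectoderm/amnion-like) was -2.82 ± 0.15 for IGFBP7 (edgeR adjusted p = 2.7e-10), -2.06 ± 0.17 for IGFBP5 (adjusted p = 5.9e-08), -0.95 ± 0.14 for IGF1R (adjusted p = 4.1e-05) and -0.90 ± 0.14 for IGFBP2 (adjusted p = 6.8e-05). IGFBP3 had 0.66 ± 0.19 (adjusted p = 0.0096), a call lost at a coarser clustering (adjusted p = 0.098). PAPPA had -1.73 ± 0.65 (adjusted p = 0.044) on 2 UMIs in each library of the cluster, with adjusted p between 0.054 and 0.10 in 4 alternatives. These include a stricter filter of cells, under which the cluster compared held 53 and 59 cells and so other cells too. PAPPA2 (0.32 ± 0.21, adjusted p = 0.24), IGFBP4 (-0.51 ± 0.46, adjusted p = 0.40) and IGF2R (0.0032 ± 0.14, adjusted p = 0.99) did not pass. The cluster's median depth was 68758 UMIs in library 1 and 22506 in library 2, and its PGF level was 498 and 103 CPM, so the libraries differ in these cells; the part of this in the result was not tested.

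The mix of binding proteins therefore differed between the kinds of cells. The 6 binding proteins summed to 1927 ± 23.8 CPM in the trophectoderm/amnion-like class, 1270 ± 132 CPM in the PGF-high cluster and 343 ± 13.9 CPM in the epiblast-like class (SD, n = 2). IGFBP7 gave 44.5% ± 0.18 of these UMIs and IGFBP3 34.9% ± 0.14 in the trophectoderm/amnion-like class. IGFBP3 alone gave 78.6% ± 0.55 in the PGF-high cluster. In the epiblast-like class IGFBP2 led with 42.2% ± 1.23, followed by IGFBP7 with 25.5% ± 3.68, IGFBP3 with 16.6% ± 2.79 and IGFBP4 with 11.8% ± 1.35. IGFBP4 gave 0.62% ± 0.12 in the trophectoderm/amnion-like class. The leading binding protein was thus a different one in each of the 3 kinds of cells taken as a whole, in both libraries. Within the epiblast-like class the mix was not uniform. Over both libraries, the VTCN1-high sub-cluster gave 199 UMIs of IGFBP7, 129 of IGFBP3 and 86 of IGFBP2. The MESP1-high sub-cluster gave 67 of IGFBP4 and 60 of IGFBP2. IGFBP2 led in the other sub-clusters.

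The share of cells with at least 1 UMI was taken after thinning each cell to 5000 UMIs, which left out 110 shallower cells of library 1 and 381 of library 2. In the trophectoderm/amnion-like class of library 1, 658 of 710 cells had IGFBP7 (92.7%, 95% exact interval 90.5 to 94.5), and 845 of 904 did in library 2 (93.5%, 91.7 to 94.99). In the epiblast-like class these shares were 11 of 61 (18.0%, 9.36 to 29.98) and 23 of 96 (24.0%, 15.8 to 33.7). PAPPA2 was found in 72.1% and 74.3% of trophectoderm/amnion-like cells against 9.84% and 13.5% of epiblast-like cells, and IGFBP3 in 76.6% and 79.2% against 8.20% and 17.7%. The epiblast-like cells are the deeper ones, with median depths before thinning of 52920 and 48692 UMIs against 36539 and 32920. Free RNA in the droplets can give single UMIs, and its share was not measured. Intervals here and below are exact Clopper-Pearson intervals for counting error only.

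IGFBP5 was found in 33.0% and 33.4% of trophectoderm/amnion-like cells, a smaller share than IGFBP2 with 59.2% and 62.3%. Without thinning, the shares were 62.8% and 63.7% for IGFBP5 and 85.0% and 86.6% for PAPPA2. PAPPA was found in 3.94% and 2.65% of trophectoderm/amnion-like cells and in 11.5% and 9.38% of epiblast-like cells. IGFBP4 was found in 5.35% and 5.42% against 21.3% and 15.6%. The epiblast-like shares of PAPPA rest on 7 of 61 and 9 of 96 cells. Thinned to 2000 UMIs instead, PAPPA was found in 1.35% and 1.08% of trophectoderm/amnion-like cells, against 8.96% and 1.01% of epiblast-like cells. IGFBP4 was then found in 2.29% and 2.38% against 10.4% and 2.02%. At that depth neither share was higher in the epiblast-like cells of library 2. In the PGF-high cluster PAPPA was found in 0 of 23 and 0 of 44 thinned cells, where 3 cells would be shares of 13.0% and 6.82%. Without thinning it was found in 17.4% and 5.56% of the cluster's cells.

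Within the trophectoderm/amnion-like class, few cells held most of the IGFBP5 UMIs. The 10% of thinned cells with most IGFBP5 had 61.5% of its UMIs in library 1 and 62.4% in library 2, with up to 16 and 18 UMIs in a cell while the median cell had 0. The top 10% of cells, taken for each gene in turn, had 36.8% and 35.0% of PAPPA2 UMIs, 32.7% and 32.4% of IGFBP3 UMIs, and 24.4% and 23.05% of IGFBP7 UMIs. For IGF2R, which is lower than IGFBP5 in these cells, they had 36.4% and 39.3%. PAPPA, IGFBP4 and IGFBP6 were found in fewer than 10% of cells, so the top 10% had 100% of their UMIs. The Fano factor, the variance over the mean, was 5.24 and 4.76 for PAPPA2, 3.96 and 3.89 for IGFBP5 and 2.15 and 1.88 for IGFBP7, while IGF2R (1.03 and 1.21) was near 1, the value that independent counts give. The highest cell had 35 PAPPA2 UMIs in library 1 and 30 in library 2, while the median cell had 2 and 3.

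Across single cells of that class the members were weakly correlated. Pearson's r of PAPPA2 with IGFBP3 was 0.18 in library 1 (710 cells) and 0.14 in library 2 (904 cells), and with IGFBP5 it was -0.095 and -0.065. PAPPA2 and IGFBP3 were found together in 59.2% and 61.1% of thinned cells, where their separate shares multiply to 55.3% and 58.9%. These values are descriptions of sparse counts from shared libraries.

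Between single clusters, 10 of 10 members tested differed by edgeR's quasi-likelihood F test across the 7 clusters that held 20 cells or more in each library, against 68.7% of all 14715 genes tested. The adjusted p was lowest for IGFBP7 (9.5e-16) and highest for IGFBP6 (0.0021). PAPPA2 was highest in the largest cluster, led by GPC5 and DSCAM, at 903 and 840.3 CPM, and in the PGF-high cluster, and these do not differ beyond their spread. It was at 639.9 and 714 CPM in the cluster led by APOLD1 and TOP2A and at 446 and 526 CPM in that led by PTTG1 and SFRP1. The shallow cluster led by PLCG2, with a median of 9676 UMIs per cell, had 87.3 and 156 CPM.

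IGFBP3 had another order, from the PGF-high cluster through the GPC5 cluster at 787 and 782 CPM and the PTTG1 cluster at 674 and 703 CPM to the TOP2A cluster at 475 and 469 CPM and the PLCG2 cluster at 193 and 228 CPM. IGFBP5 was at 176 and 182 CPM in the PTTG1 cluster and at 174 and 170.0 CPM in the GPC5 cluster, and these neighbours lie close together. It was at 120.4 and 132 CPM in the TOP2A cluster. IGFBP7 kept between 793 and 909 CPM in all 3 of these clusters. IGF1R was lowest of them in the PTTG1 cluster, at 312 and 319 CPM, against 363 CPM or more in the others.

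**Figure D5:**
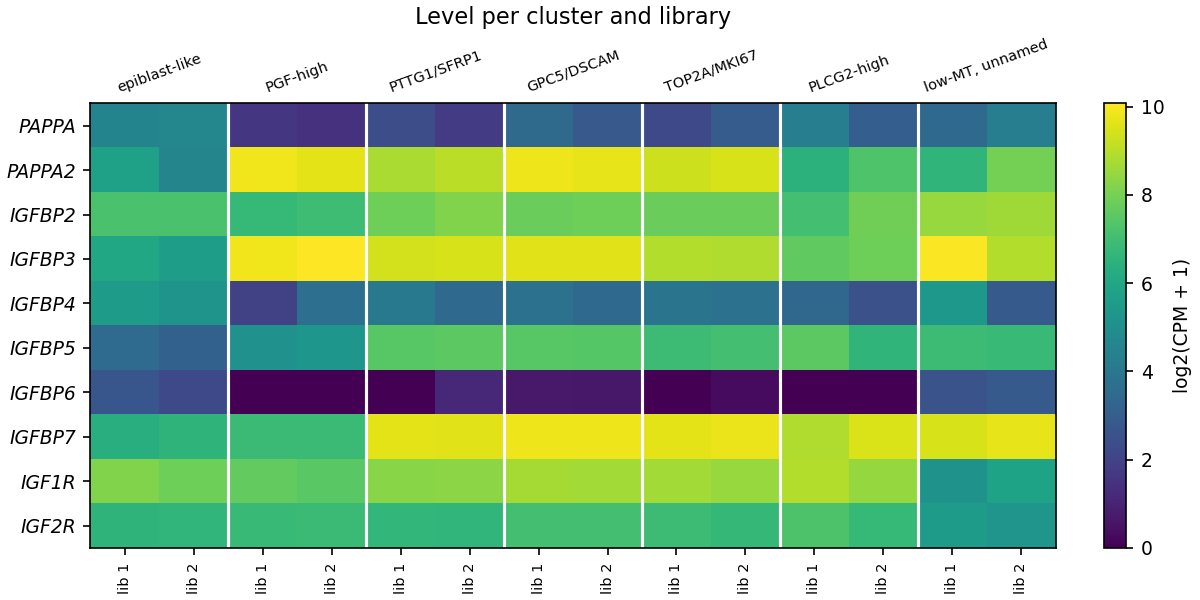
Level of each member as log2(CPM + 1) in 7 clusters, with a column per library. From left to right are the epiblast-like class, the PGF-high cluster, 4 clusters of the trophectoderm/amnion-like class named by leading genes, and an unnamed shallow cluster with almost no mitochondrial RNA. PAPPA2 is low in the epiblast-like, PLCG2-high and low-MT columns, and IGF1R is lowest in the low-MT columns.

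Each of the 4 clusters of the trophectoderm/amnion-like class with 20 cells or more in each library was tested against the mean of the other 3. A further cluster of the class, of 19 cells, was too small to enter. In the PTTG1 cluster 5 members differed, against 21.4% of all genes, and in the GPC5 cluster 3 did, against 11.9%. In the TOP2A cluster 1 differed, against 7.01%, and in the PLCG2 cluster 4 did, against 11.0%. The largest differences were in the PLCG2 cluster, with log2 fold changes of -2.59 ± 0.24 for PAPPA2 (edgeR adjusted p = 4.4e-08) and -1.71 ± 0.19 for IGFBP3 (adjusted p = 5.4e-07). That cluster is shallow and enters the mean of the others, so the contrasts were repeated without it, as an alternative chosen after seeing the data. PAPPA2 then was higher in the GPC5 cluster by 0.59 ± 0.14 (adjusted p = 0.0042; 1.40 with the PLCG2 cluster) and lower in the PTTG1 cluster by -0.63 ± 0.15 (adjusted p = 0.0047; 0.29 and not called with it). In the TOP2A cluster the PAPPA2 difference was 0.04 ± 0.14 (adjusted p = 0.91), where it had been 0.90 ± 0.16 and called.

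Without the PLCG2 cluster, the TOP2A cluster had less IGFBP3 (-0.65 ± 0.13, edgeR adjusted p = 0.0022) and less IGFBP5 (-0.49 ± 0.09, adjusted p = 0.00051) than the mean of the PTTG1 and GPC5 clusters. With the PLCG2 cluster in the fit, these differences were -0.01 (adjusted p = 0.98) and -0.36 (adjusted p = 0.056), and neither was called. The calls of PAPPA and IGFBP3 in the PTTG1 cluster (adjusted p = 0.10 and 0.29) and of IGFBP7 in the GPC5 cluster (adjusted p = 0.30) were lost, and IGFBP3 in the GPC5 cluster had 0.45 ± 0.13 (adjusted p = 0.013; 0.98 with the PLCG2 cluster). The PTTG1 cluster had more IGFBP5 (0.31 ± 0.09, adjusted p = 0.014) and IGFBP2 (0.26 ± 0.08, adjusted p = 0.037) and less IGF1R (-0.31 ± 0.09, adjusted p = 0.016). IGF2R was lower in the PTTG1 cluster (-0.27 ± 0.09, adjusted p = 0.046) and higher in the GPC5 cluster (0.33 ± 0.08, adjusted p = 0.0066), and neither passed with the PLCG2 cluster in the fit. PAPPA was higher in the GPC5 cluster (0.93 ± 0.30, adjusted p = 0.028; 0.42 and not called with the PLCG2 cluster), at 10.1 and 6.01 CPM.

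Cells at both ends of the mitochondrial share departed from the rest, in opposite ways for IGF1R, IGF2R, PAPPA2 and IGFBP2. An unnamed cluster of 80 and 63 cells had a median of 0.11% mitochondrial UMIs and of 3102 UMIs per cell. IGF1R was at 34.9 and 56.3 CPM there, on 7 and 9 UMIs, IGF2R at 44.9 and 37.6 CPM, and PAPPA2 at 94.7 and 250.4 CPM, while IGFBP2 was at 364 and 394 CPM and IGFBP7 at 698 and 833 CPM. IGFBP2 was higher than in any other of the 7 clusters, and both receptors were lower.

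In the barcodes left out for over 20% mitochondrial UMIs, 71 and 69 in number, IGF1R was at 507 and 532 CPM, IGF2R at 152 and 168 CPM and PAPPA2 at 743 and 820.0 CPM. IGFBP3 was at 112 and 177 CPM, IGFBP2 at 80.9 and 54.8 CPM, IGFBP5 at 75.9 and 58.3 CPM and IGFBP7 at 498 and 571 CPM in these barcodes. The receptors were thus above, and these binding proteins below, their levels over the used cells. IGF1R, IGF2R and PAPPA2 span 315992, 142423 and 382427 bp of the genome and IGFBP2, IGFBP3, IGFBP5 and IGFBP7 31609, 9028, 23445 and 79613 bp. PAPPA, which spans 248531 bp, gave 10 and 0 UMIs in these barcodes. The part of gene length, depth or mitochondrial share in these differences was not tested.

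Among the ligands of the pathway, IGF2 was at 9.85 and 9.20 CPM over all used cells and IGF1 at 2.11 and 0.50 CPM. IGF2, the main fetal IGF, was higher in the trophectoderm/amnion-like class (12.6 and 9.06 CPM) than in the epiblast-like class (1.98 and 0.73 CPM, on 4 and 2 UMIs), with a log2 fold change of 3.11 ± 0.53 (edgeR adjusted p = 0.00012). The insulin receptor INSR was at 93.0 and 86.8 CPM and higher in the trophectoderm/amnion-like class by 0.66 ± 0.16 (adjusted p = 0.0030). IGF1 gave 24 UMIs in the epiblast-like class of library 1 and 1 UMI in library 2, so its level there rests on 1 library. INS and IGFALS were in neither count table, so no levels of them are given.

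Of the further binding proteins, IGFBPL1, an IGFBP-related secreted protein, was at 82.8 and 77.9 CPM and higher in the trophectoderm/amnion-like class by 2.17 ± 0.17 (edgeR adjusted p = 9.7e-09). IGFBP1, known from decidua and liver, gave 0 and 5 UMIs in all used cells and lies 18584 bp from IGFBP3 on chromosome 7. The pappalysin inhibitors were low: STC2 was at 7.82 and 6.69 CPM, STC1 at 2.94 and 2.42 CPM, and PRG2 gave 2 and 3 UMIs. STC2 did not pass between the classes (-0.57 ± 0.33, adjusted p = 0.17), while STC1 (1.94 and 2.44 CPM in the trophectoderm/amnion-like class, 11.4 and 5.12 CPM in the epiblast-like class) was too low for the filter. HTRA1, another protease that cuts binding proteins, was at 25.9 and 24.1 CPM and higher in the trophectoderm/amnion-like class by 1.20 ± 0.27 (adjusted p = 0.0015).

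IRS1, IRS2 and IRS4, adaptors of the receptors, did not pass between these classes. The log2 fold change was 0.39 ± 0.17 for IRS1 (edgeR adjusted p = 0.070), 0.36 ± 0.16 for IRS2 (adjusted p = 0.082) and -0.50 ± 0.27 for IRS4 (adjusted p = 0.15). Of 43 listed pathway genes other than the members, 41 were in a table and 34 were tested, of which 13 were higher in the trophectoderm/amnion-like class, against 22.2% of all genes, and 5 were lower, against 23.6%. The median log2 fold change of the 34 was 0.22, and that of all genes tested was -0.01.

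By the correlation of log2(CPM + 1) across the 7 clusters, taken in each library and ranked by its lower value, the genes most like PAPPA2 among 5443 candidates were RAB31 (r = 0.97 and 1.00), UBASH3B (0.96 and 0.95), the collagen genes COL12A1 (1.00 and 0.94) and COL6A3 (0.99 and 0.93), and AHNAK (0.93 and 0.97). For IGFBP3 they were CALD1 (0.97 and 0.98), PLSCR5, AFAP1L2, CTSV and LINC00379. For IGFBP5 they were CCDC3 (0.95 and 0.95), SLC35F2, KLF3, TRIM55 and CTHRC1. For IGFBP7 they were FERMT1 (0.98 and 0.96), TGFBI, IGFBPL1, FSTL1 and HNMT. For IGFBP2 they were IGBP1 (0.97 and 0.97), SEPTIN2, TSTD1, EPB41L4A-AS1 and TSPAN6.

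The leading gene for IGF1R was HERC4 (1.00 and 1.00), followed by CERS6, MACF1, ZNF148 and SPIN1. That for IGF2R was XXYLT1 (0.99 and 0.99), followed by WIPF2, TRAPPC9, ZDHHC21 and KIF13B. Among the members themselves, IGFBP5 with IGFBP7 (0.93 and 0.92) and IGF1R with IGF2R (0.94 and 0.90) were most alike. PAPPA2 with IGFBP3 had 0.68 and 0.96. PAPPA, IGFBP4 and IGFBP6 were below 50 CPM in every cluster of a library and were not matched. With 7 points per library that share libraries and differ in depth, these values are descriptions.

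IGFBP7-AS1, PAPPA-AS1 and PAPPA-AS2 are antisense genes of members. No source used here says how counting used the strand, so their reads and those of the members may not be separate. IGFBP7-AS1 was at 3.23 and 3.36 CPM over all used cells, PAPPA-AS1 at 0.88 and 0.48 CPM, and PAPPA-AS2 gave 2 UMIs in library 1 and 0 in library 2.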

How the data were processed

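The members and all gene lists were chosen with earlier results of these data known. Per the labels' protocols, libraries were made with droplet 3′ chemistry, with Cell Ranger 9.0.0 and GRCh38 named in the submitters' processing notes. The authors deposited raw UMI counts by gene and barcode; intron and strand use in counting are not given in the sources used here.

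The tables list 1988 barcodes with 38665475 UMIs in library 1 and 2601 with 45208758 in library 2. Of these barcodes, 980 and 1013 barcodes had under 1000 genes, and 71 and 69 more had over 20% mitochondrial UMIs. Scrublet called 0 and 2 doublets, which were removed; so few calls mean that doublets may remain. The libraries share 1 barcode, and 0 among the used cells.

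Each UMI was assigned at random to a part for clustering (scanpy 1.11.5; 2000 variable genes, 30 components, 15 neighbours, Leiden at resolution 0.5) or a part for levels and tests. Clusters were named by their best-scoring marker list, unless their depth was under 1/3 of that of their library with no marker leading. The 4 unnamed clusters entered the fits where they had 20 cells in both libraries. Sums per library and class entered edgeR 4.0.16 (quasi-likelihood test with library as a block, TMM scaling and filterByExpr, with Benjamini-Hochberg adjustment over all genes that passed the filter). Genes in both tables, 25556 of 28363, could enter. SE is the size of the log2 fold change over the square root of F. The libraries are the replicates, and each gives cells to both sides of a contrast. With library as a block, the fit of classes left 3 residual degrees of freedom and that of clusters 6. Small p-values thus rest on few sums and on the spread that edgeR shares across genes. Residuals of classes from the same library correlated at -0.008 to 0.12 over 6 pairs. Alternatives used DESeq2 1.42.0, other filters, divisions and clusterings. Simulated counts with known changes were used to test the edgeR fit. All members were named, with pathway ligands, receptors, binding proteins, inhibitors and adaptors and the 5 genes of most like pattern. Gene positions are from RefSeq, on GRCh38.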

Additional observations from a re-analysis of the deposited data

How the results depend on the processing

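With 2 libraries, one line and 1 group, nothing here separates culture from library, and depth limits PAPPA, IGFBP4 and IGFBP6 to few UMIs. The count of members called between the trophectoderm/amnion-like and epiblast-like classes was 9 of 9 tested. Over all alternatives it ranged from 8 of 9 to 10 of 10. That of pathway genes was 18 of 34 and ranged from 14 of 39 (DESeq2's Wald test) to 21, of 33 to 40 tested. Among all 12589 genes tested, 2792 were higher and 2966 lower. Under another random division of the UMIs these were 2429 and 2381 of 13052, and without a filter on low counts 3199 and 3330 of 25507. Between clusters, 10 of 10 members tested were called, with a range of 8 of 9 to 10 of 10. For single clusters within the trophectoderm/amnion-like class the number was 13, with a range of 10 to 16, and 4 to 6 for the PGF-high cluster. Without the replicate block these counts of calls were, in the same order, 9, 18, 10, 10 and 6. Shares of all genes in the last 3 were taken only in the fits reported above. At 2000 genes and 10% mitochondrial UMIs, the cluster with the syncytiotrophoblast name held 53 and 59 cells, against 23 and 54. Its median depth relative to the library was 0.38, against 1.64. It thus held other, shallower cells, and that alternative does not repeat the contrast for the PGF-high cells alone. Between classes, every called fold change of a member kept its direction under each alternative run. Calls of IGF2R, and of PAPPA and IGFBP3 in the PGF-high cluster, were lost in the alternatives given with them; the cause was not tested. Leaving out either library gives folds with no test: PAPPA2 between the classes had 3.85 in library 1 and 5.05 in library 2. Over all used cells, the stricter filter of 2000 genes and 10% mitochondrial UMIs and the use of all barcodes left PAPPA2 at 637 and 651 CPM. Thinning to 2000 UMIs instead of 5000 moved the shares of all 10 members by at least their SD between libraries. In library 2 the PAPPA and IGFBP4 shares were then no longer higher in the epiblast-like class. Contrasts of single clusters were not run with DESeq2's Wald test or under other clusterings.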

Other observations

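Small clusters and shallow barcodes outside the comparisons gave further values. A cluster of 19 trophectoderm/amnion-like cells, 18 of them in library 2, had IGFBP3 at 1321 CPM and IGFBP5 at 3.98 CPM in that library, on 332 UMIs and 1 UMI. A cluster of 11 cells of library 2, led by CRYM and SPP1, had IGFBP7 at 2736 CPM on 47 UMIs and 0 UMIs of PAPPA2. A cluster of 8 cells of library 2 had IGFBP5 at 884 CPM on 21 UMIs. In the shallow cluster of 363 cells, 345 of them in library 2, PAPPA2 was at 839 CPM and IGFBP7 at 967 CPM in library 2. Barcodes with under 1000 genes had PAPPA2 at 282 CPM in library 1 and 671 CPM in library 2.

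PHLDA2, an imprinted gene that restrains placental growth and 1 of the listed pathway genes, is singled out after its values were seen. It was at 332 and 82.0 CPM in the PGF-high cluster, 1.68 and 0.81 CPM in the trophectoderm/amnion-like class and 14.4 and 14.98 CPM in the epiblast-like class. The log2 fold change of PHLDA2 between the first and second of these was 7.33 ± 0.35 (edgeR adjusted p = 1.3e-10).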
